A study of Mus musculus with 6 samples.

Results

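The genes of blood and lymphatic vessels examined here were 37 genes chosen by symbol: growth factors that act on vessels, their receptors, adhesion molecules of endothelial cells, and markers of blood endothelium, lymphatic endothelium and pericytes. All 37 were found among the 24061 genes of the count table, which lists genes by Entrez number, and all 37 were among the 16371 genes with enough counts to be tested. The study asked how recombinant interleukin-31 (rIL-31), a cytokine of type 2 helper T cells, changes the skin. Dorsal skin of C57BL/6 mice was compared at Day 14 between mice given 20 μg of rIL-31 in 50 μl of saline each day by intradermal injection and mice given 50 μl of saline alone in the same way. The mice were female, 8 to 14 weeks old, and carried no transgene or deletion. RNA-Seq was done on 3 skin samples of each group, and both groups received the same number of injections.

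Vessels grow and are held stable by secreted ligands that bind receptor tyrosine kinases on endothelial cells. Ligands of the vascular endothelial growth factor (VEGF) family bind Flt1, Kdr and Flt4, and the angiopoietins bind Tek, which pairs with the related receptor Tie1. In inflamed skin, endothelial cells of small venules also place selectins and immunoglobulin-type adhesion molecules on their surface, which slow passing leukocytes and then hold them. E-selectin, the product of Sele, is known in skin as an inducible endothelial molecule that is scarce at rest.

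Whole skin was sequenced, so fewer cells of a type and less RNA per cell cannot be told apart. The counts summed to between 23122953 and 25552684 in the rIL-31 libraries and to between 21710679 and 23963685 in the saline libraries. Replicates carry numbers in the labels, with no word on whether every library had its own mouse, and the p-values therefore reflect a spread among libraries that may be technical. The libraries differed in a trend with the GC content of the transcript. The Spearman correlation across genes between GC content and a library's log level minus the average of the 6 libraries was 0.383, 0.272 and -0.25 in rIL-31 replicates 1, 2 and 3, against -0.115, -0.203 and -0.238 in saline replicates 1, 2 and 3. The rIL-31 group therefore held libraries of both signs, and the counts of vessel genes are given also without rIL-31 replicate 3 and with offsets for GC content and transcript length. Without rIL-31 replicate 3, the trend was positive in every rIL-31 library and negative in every saline library. Treatment and the GC trend therefore cannot be told apart in that fit, and its FDRs carry this limit. The endothelial identity of the tissue was checked with 8 markers of blood endothelium (Pecam1, Cdh5, Cldn5, Kdr, Tek, Tie1, Emcn and Esam). No marker was at 0 in any library, and their summed level was 209, 237 and 187 in the rIL-31 libraries, against 225, 209.8 and 199 in the saline libraries, as read counts scaled to a common depth after normalization by the trimmed mean of M values (CPM). The groups overlapped in this sum. Cdh5 and Pecam1 were its largest parts, and Cldn5 was called lower, as given below, so the sum does not stand for each marker.

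Of the 37 vessel genes, 2 rose in rIL-31-treated skin, none fell, and 35 did not pass the test, at a false discovery rate (FDR) below 0.1 in edgeR's quasi-likelihood test with Benjamini-Hochberg adjustment over all tested genes. Over all tested genes, 4.51% were called higher and 3.73% lower. The genes that rose were Sele and Angptl7, both by more than 2-fold, a size that 1.15% of all tested genes reached as rises and 0.696% as falls. At an unadjusted p below 0.05, 3 of the vessel genes were higher and 4 were lower, where 10.3% and 9.27% of all tested genes were. DESeq2 called 3 higher and 2 lower of the 36 it gave an adjusted p, where 6.41% and 5.76% of all genes were. With limma-voom 2 were called higher and 0 lower, where 4.21% and 3.85% of all genes were. The median log2 fold change of the vessel genes was 0.0935, against 0.0077 over all tested genes, and the median absolute log2 fold change was 0.209, against 0.21 over all tested genes. The 2 groups of libraries did not overlap for 10 of the 37 genes, 5 of them higher and 5 lower in rIL-31-treated skin. Over all tested genes this held for 25.7%, with 12.8% higher and 12.9% lower, so the share among the vessel genes lay near the background. Without rIL-31 replicate 3, 5 vessel genes were called higher and 3 lower, where 12.3% and 11.8% of all tested genes were. These were Sele, Angptl7, Icam1, Vegfa and Plvap, and Vcam1, Rgs5 and Mmrn1. In that fit the sign of the GC trend went with treatment. With offsets for GC content and transcript length 2 were called higher and 0 lower, where 5.45% and 3.01% of all genes were.

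**Figure D1:**
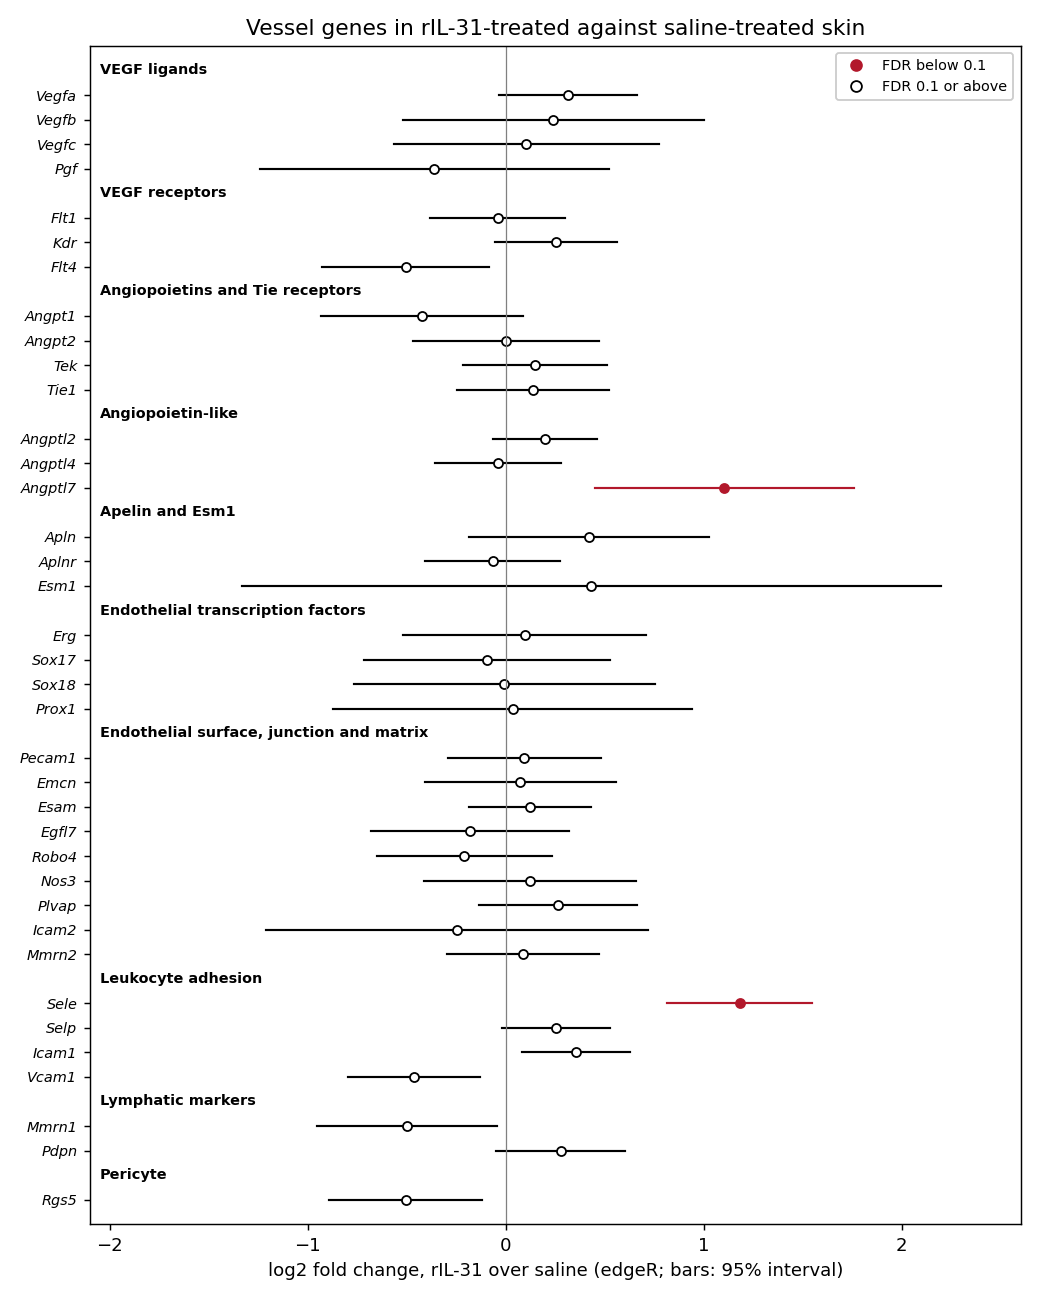
Log2 fold change of each of the 37 vessel genes in rIL-31-treated over saline-treated skin (horizontal axis), grouped by role, with points for the edgeR estimate and bars for its 95% interval (3 libraries per group). The filled red points are Sele at 1.18 and Angptl7 at 1.10, and the open points are the 35 genes that did not pass an FDR below 0.1.

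Among the adhesion molecules of the endothelium, Sele rose. Icam1 and Selp had higher values that did not pass, and Vcam1 had lower values that did not pass. Sele lies on chromosome 1 from 164039614 to 164058487 in RefSeq's annotation of GRCm38.p6, the build of mm10. The RefSeq span of Sele begins upstream of the start used here, which lies inside it. The 250 bases before an annotated start of 4 genes are shown because they hold or lack motifs of factors that cytokines activate. Sele and Angptl7 are the genes that rose, while Selp and Icam1 were chosen after their values were seen, as adhesion genes for comparison. All 4 windows are RefSeq sequence of GRCm38.p6, written 5′ to 3′ along the gene. They span chr1:164047984-164048233 (plus strand) for Sele, chr1:164115014-164115263 (plus) for Selp, chr9:21015690-21015939 (plus) for Icam1 and chr4:148500463-148500712 (minus) for Angptl7. Capitals mark a TATAAA on the gene's strand, or on either strand a TGANTCA (AP-1), a TTCNNNGAA (STAT) or an NF-kB motif of 10 letters.
Sele: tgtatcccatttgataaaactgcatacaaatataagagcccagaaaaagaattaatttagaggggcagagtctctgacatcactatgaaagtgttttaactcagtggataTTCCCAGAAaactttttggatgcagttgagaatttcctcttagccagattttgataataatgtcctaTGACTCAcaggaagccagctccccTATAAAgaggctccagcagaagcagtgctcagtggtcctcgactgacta
Selp: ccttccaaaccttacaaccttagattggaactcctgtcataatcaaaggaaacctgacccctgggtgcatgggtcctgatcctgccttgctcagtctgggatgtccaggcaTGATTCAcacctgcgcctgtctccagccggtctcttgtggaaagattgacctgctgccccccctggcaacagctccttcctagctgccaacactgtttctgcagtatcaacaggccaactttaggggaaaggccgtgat
Icam1: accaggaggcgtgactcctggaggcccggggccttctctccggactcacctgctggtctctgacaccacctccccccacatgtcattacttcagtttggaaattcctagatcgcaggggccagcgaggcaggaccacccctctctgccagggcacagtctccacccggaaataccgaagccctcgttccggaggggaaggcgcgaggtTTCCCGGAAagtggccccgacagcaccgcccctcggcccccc
Angptl7: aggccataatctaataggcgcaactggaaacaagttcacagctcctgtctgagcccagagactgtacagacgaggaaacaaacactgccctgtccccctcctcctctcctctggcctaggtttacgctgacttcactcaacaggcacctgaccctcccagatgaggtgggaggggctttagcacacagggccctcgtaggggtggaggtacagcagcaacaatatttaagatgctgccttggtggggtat
The Sele window held TGACTCA from 73 to 67 bases, TTCCCAGAA from 140 to 132 bases and TATAAA from 49 to 44 bases before the start. The Selp window held TGATTCA from 139 to 133 bases before the start, and the Icam1 window TTCCCGGAA from 42 to 34 bases before it. The bases after the Icam1 start were not found in a GENCODE transcript of Icam1, so its start may differ between annotations. The Angptl7 window held none of the 4 motifs. Of 24 vessel genes with a window in the RefSeq table, the AP-1 motif was in 2 (Sele and Selp), the STAT motif in 2 (Sele and Icam1), TATAAA in 2 (Sele and Flt1) and the NF-kB motif in 3 (Flt1, Kdr and Vegfa). Among all 32851 windows of this length these shares were 6.75%, 7.02%, 7.59% and 3.9%. The hypoxia response element ACGTG was in 2 (Pdpn and Vegfa) and the ETS core GGAA in 23 of the 24, where 16.6% and 93.4% of all windows held them, and neither is in capitals. Both strands were searched except for TATAAA, and GGAA can lie inside the STAT motif. The NF-kB motif was a single fixed pattern that begins with GGG. Variant forms of it were not searched, so a window without a match, such as that of Sele or Icam1, can still hold such a variant. A match is only a string of letters in the window, and no binding was measured.

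Sele was at 16.7, 15.8 and 13.5 CPM in rIL-31 replicates 1, 2 and 3, against 6.97, 6.46 and 6.85 CPM in saline replicates 1, 2 and 3. Every rIL-31 library lay above every saline library, and the saline values were close together. The means were 15.4 ± 1.64 CPM in rIL-31-treated and 6.76 ± 0.267 CPM in saline-treated skin (SD, n = 3 each). This was a log2 fold change of 1.18 (SE, the standard error of the estimate, 0.17, 95% interval 0.81 to 1.55), with an FDR of 0.00269 in edgeR's quasi-likelihood test. It passed in all 6 fits with 1 library left out, with log2 fold changes between 1.11 and 1.26 and FDRs up to 0.0283, and was at 1.196 with the GC and length offsets. Relative to Pecam1, a junction protein found on all endothelial cells, the CPM ratio of Sele was 0.413, 0.303 and 0.421 in the rIL-31 libraries, against 0.162, 0.19 and 0.173 in the saline libraries. The ratio did not overlap between the groups, so the higher level of Sele was also seen per unit of Pecam1. Pecam1 itself differed little, with a log2 fold change of 0.0935, so this ratio largely follows Sele. The ratios of Icam1 and Selp to Pecam1 overlapped between the groups, and that of Vcam1 was lower in every rIL-31 library. A long noncoding RNA, Gm51665, overlaps the span of Sele in RefSeq, and the use of strand in counting is not given in the sources used here.

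Selp encodes P-selectin, which endothelial cells and platelets store in granules. It was at 28.3, 31.8 and 33.0 CPM in the rIL-31 libraries, against 27.1, 26.2 and 24.7 CPM in the saline libraries. The groups lay apart by a small gap, and the log2 fold change of 0.26 (SE 0.12, 95% interval -0.017 to 0.53) had an FDR of 0.288 in edgeR's test. Of the 6 platelet markers listed, 3 were tested, none of these passed in edgeR's test, with DESeq2 or with limma-voom, none reached an unadjusted p below 0.05, and the summed level of the 6 was 7.02 to 10.2 CPM in rIL-31 and 5.03 to 7.65 CPM in saline libraries. Itga2b, Ppbp and Gp1ba were at 0.59, 0.66 and -0.32 on the log2 scale, with only 6 to 41 counts for Ppbp and 27 to 59 for Gp1ba. Pf4, which platelets and macrophages make, is on another list and rose by 0.86. The part of platelets in the Selp values was not tested. Icam1 encodes a ligand of leukocyte integrins that keratinocytes and fibroblasts can also make. Its level was 54.1, 54.2 and 46.0 CPM in the rIL-31 libraries, against 39.5, 44.0 and 37.1 CPM in the saline libraries. All rIL-31 values lay above the saline values, at a log2 fold change of 0.36 (SE 0.12) and an FDR of 0.138 in edgeR's test. DESeq2 gave an FDR of 0.0972, and with the GC and length offsets the log2 fold change was 0.23 at an FDR of 0.26.

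Vcam1, whose product binds the α4 integrins of lymphocytes and eosinophils, was at 25.5, 33.1 and 24.5 CPM in the rIL-31 libraries, against 42.3, 38.6 and 33.8 CPM in the saline libraries. The highest rIL-31 library lay just below the lowest saline library. Vcam1 had a log2 fold change of -0.46 (SE 0.15, 95% interval -0.80 to -0.13), and the FDR was 0.117 in edgeR's test and 0.0622 with DESeq2. The Vcam1 transcript has a GC content of 40.1%, and with the GC and length offsets the log2 fold change was -0.33 at an FDR of 0.323. The CPM ratio of Sele to Vcam1 within a library was 0.655, 0.477 and 0.552 in rIL-31-treated skin, against 0.165, 0.167 and 0.203 in saline-treated skin. The groups already lay apart in opposite directions for these genes, so the gap in this ratio follows from their values and is no separate result. Selp, Icam1 and Vcam1 share 438, 511 and 61 exon bases with a noncoding gene on the other strand (Gm16548, Gm47079 and Gm43109), so reads of these pairs may not be separable. The same holds for Selp and the antisense gene Gm16587, which share 186 exon bases.

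On the leukocyte side, a list of 11 genes for molecules that bind these endothelial proteins had 2 genes that rose, 1 that fell and 8 that did not pass, with a median log2 fold change of 0.0087, where 4.51% and 3.73% of all tested genes were called higher and lower. With 1 library left out 0 to 2 rose, with 0 without rIL-31 replicate 2 or saline replicate 2 or 3 and 1 without rIL-31 replicate 1 or saline replicate 1. Itgam, the αM integrin subunit that pairs to form an Icam1 receptor, rose by 0.55 (SE 0.13) on the log2 scale and passed in 3 of the 6 fits with 1 library left out. Itgb7, a partner of the α4 integrin subunit, rose by 0.46 (SE 0.14) at an FDR of 0.0957 in edgeR's test. Among the fits with 1 library left out it passed only without rIL-31 replicate 3, and it missed the threshold with the GC and length offsets (0.34, FDR 0.208) and with limma-voom (FDR 0.108). Itgax, the αX subunit found on dendritic cells, fell to 10.5, 11.8 and 11.4 CPM in the rIL-31 libraries, against 20.8, 17.8 and 17.6 CPM in the saline libraries. Its log2 fold change was -0.74 (SE 0.15). Itgal was at 0.39 (SE 0.14) and did not pass (FDR 0.151 in edgeR's test), though its groups did not overlap.

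**Figure D2:**
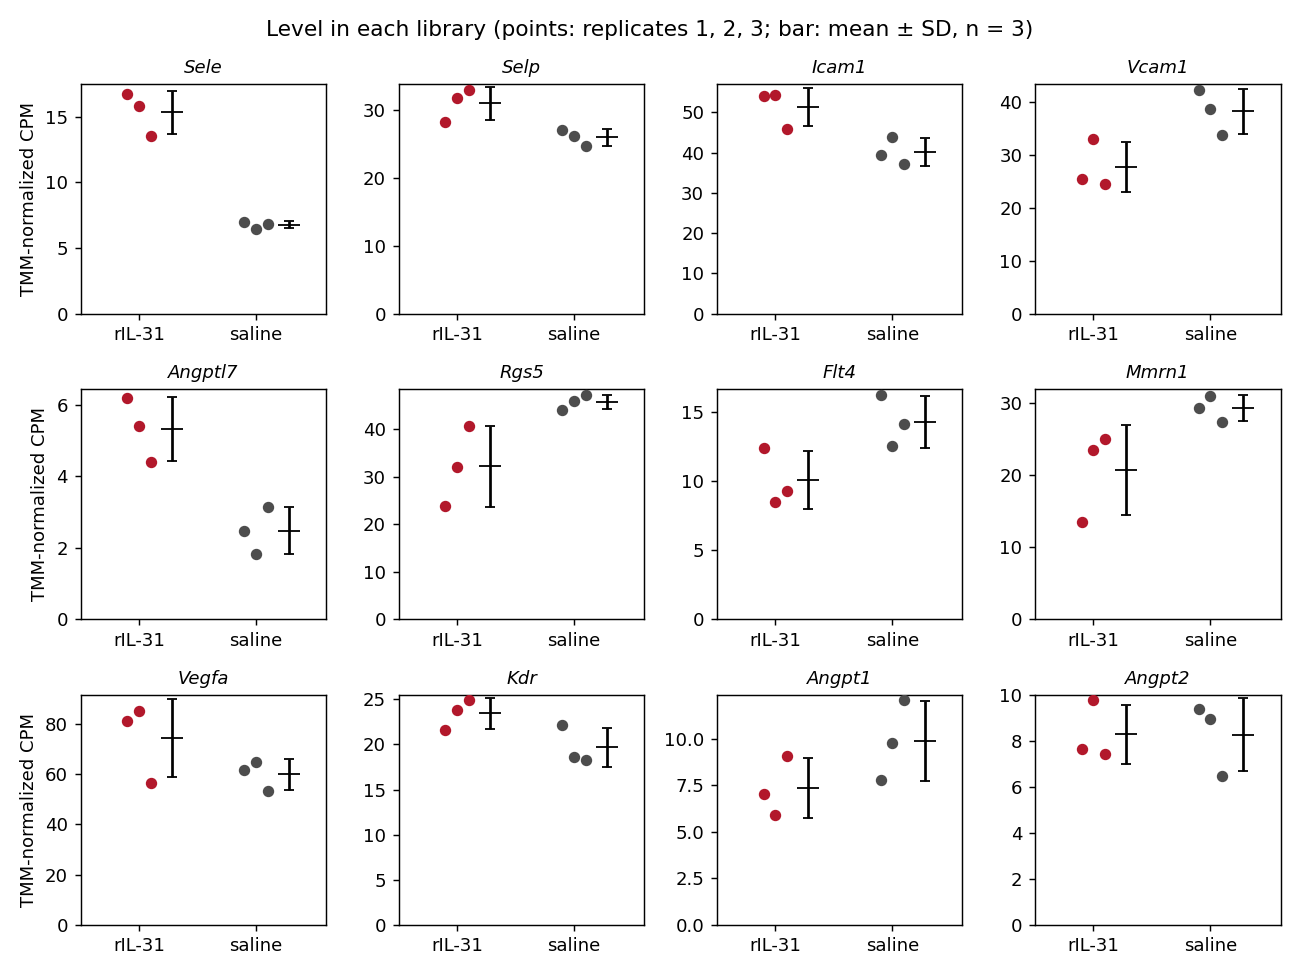
TMM-normalized CPM of 12 vessel genes in each library (points), with the mean ± SD of 3 libraries beside them, rIL-31 in red and saline in grey. Sele and Angptl7 rose with no overlap between groups, Vcam1, Rgs5, Flt4 and Mmrn1 lay lower in all 3 rIL-31 libraries without passing the test, and Kdr, Vegfa, Angpt1 and Angpt2 overlapped.

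Among the angiopoietin-like genes, which encode secreted proteins related in sequence to the angiopoietins but do not bind Tek, only Angptl7 passed the test. It is known from human eye and cornea as a matrix-associated factor. Angptl7 was at 6.18, 5.39 and 4.39 CPM in the rIL-31 libraries, against 2.48, 1.82 and 3.12 CPM in the saline libraries. The groups did not overlap, with 4.39 CPM in the lowest rIL-31 library and 3.12 CPM in the highest saline library. The means were 5.32 ± 0.894 CPM in rIL-31-treated and 2.48 ± 0.651 CPM in saline-treated skin (SD, n = 3 each), from 42 to 146 counts per library. For Angptl7 this gave a log2 fold change of 1.10 (SE 0.30, 95% interval 0.45 to 1.76), with an FDR of 0.0611 in edgeR's test. With 1 library left out it passed only without rIL-31 replicate 3. It missed the threshold without rIL-31 replicate 1 or 2 or any one of the saline libraries, with log2 fold changes from 0.92 to 1.30 and FDRs up to 0.27. It lies on chromosome 4 from 148495181 to 148500462, inside the span of Mtor, and shares no exon bases with it. Angptl2, which fibroblasts and adipocytes secrete, was at 66.7 ± 6.37 CPM in rIL-31-treated and 58.1 ± 4.81 CPM in saline-treated skin (SD, n = 3 each), with a log2 fold change of 0.20 (SE 0.12). Angptl4, an inhibitor of lipoprotein lipase, was at 24.4 ± 3.73 and 25.1 ± 1.59 CPM in rIL-31 and saline libraries (SD, n = 3 each), with a log2 fold change of -0.039 (95% interval -0.36 to 0.28).

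None of the VEGF ligands among the 37 genes passed the test. Vegfa, the main growth factor for blood vessels and one that keratinocytes secrete, was at 81.4, 85.3 and 56.7 CPM in the rIL-31 libraries, against 61.7, 65.1 and 53.2 CPM in the saline libraries. Replicates 1 and 2 of the rIL-31 group lay above all saline libraries, and replicate 3 lay among them. The log2 fold change was 0.31 (SE 0.16, 95% interval -0.036 to 0.66) with an FDR of 0.31 in edgeR's test, and 0.47 with an FDR of 0.0145 without rIL-31 replicate 3. Keratinocyte markers rose in 5 of 8 cases, where 4.51% of all tested genes were called higher. The summed level of these markers was 16400, 16720 and 12460 CPM in the rIL-31 libraries, against 9026, 8504 and 8230 CPM in the saline libraries. Krt10, Krt14, Krt5 and Krt1 were the largest parts of this sum, so it does not stand for each marker. Krt15 (0.45), Trp63 (-0.18) and Dsg3 (-0.046) did not pass, and Trp63 was lower in every rIL-31 library than in any saline library. The part of keratinocytes in the Vegfa values was not tested. Vegfb, a ligand of Flt1, spread widely in both groups, from 13.7 to 35.5 CPM in rIL-31 and from 13.6 to 31.4 CPM in saline libraries. Vegfc, the ligand of Flt4 for lymphatic growth, had 3.68 ± 1.15 CPM in rIL-31-treated and 3.43 ± 0.248 CPM in saline-treated skin (SD, n = 3 each). Pgf, placental growth factor, had 1.14, 1.504 and 1.63 CPM in the rIL-31 libraries, against 1.76, 1.74 and 2.005 CPM in the saline libraries, which did not overlap. It rested on 27 to 43 counts per library, and its log2 fold change of -0.36 had a 95% interval from -1.24 to 0.52. Vegfd, a further ligand of Flt4 that is not one of the 37, was at 32.4, 37.4 and 34.3 CPM in the rIL-31 libraries, against 19.9, 21.6 and 22.0 CPM in the saline libraries. It rose by 0.71 (SE 0.12) on the log2 scale, with an FDR of 0.00899 in edgeR's test, and passed in all 6 fits with 1 library left out.

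The VEGF receptors did not pass either. Kdr, the receptor that carries most of the growth signal of Vegfa, was at 21.6, 23.8 and 24.97 CPM in the rIL-31 libraries, against 22.1, 18.6 and 18.3 CPM in the saline libraries, and the groups overlapped through saline replicate 1. Its log2 fold change was 0.25 (SE 0.14, 95% interval -0.053 to 0.56). Flt1, which binds Vegfa tightly and also exists as a soluble decoy that gene counts do not separate, was at 21.3, 22.4 and 16.6 CPM in the rIL-31 libraries, against 22.0, 21.3 and 18.8 CPM in the saline libraries. Flt1 had a log2 fold change of -0.042 (95% interval -0.38 to 0.30), an interval that holds neither a 1.5-fold rise nor a 1.5-fold fall. Flt4, the receptor of lymphatic endothelium, was at 12.4, 8.44 and 9.29 CPM in the rIL-31 libraries, against 16.2, 12.5 and 14.1 CPM in the saline libraries. The highest rIL-31 library lay just under the lowest saline library, and the log2 fold change of -0.51 (SE 0.19) had an FDR of 0.171 in edgeR's test.

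Angiopoietin 1 stabilizes vessels through Tek, and angiopoietin 2 can act against it. Angpt1 was at 7.07, 5.93 and 9.10 CPM in the rIL-31 libraries, against 7.77, 9.80 and 12.1 CPM in the saline libraries. The groups overlapped, with a log2 fold change of -0.42 (SE 0.23, 95% interval -0.93 to 0.088). Angpt2 was at 7.66, 9.78 and 7.43 CPM in the rIL-31 libraries, against 9.41, 8.94 and 6.48 CPM in the saline libraries, and its log2 fold change was 0.0009 (95% interval -0.47 to 0.47). The CPM ratio of Angpt2 to Angpt1 within a library was 1.08, 1.65 and 0.816 in rIL-31-treated skin, against 1.21, 0.911 and 0.537 in saline-treated skin, with overlap. Angpt1 shares 737 exon bases with the antisense gene Gm17473. Tek was at 17.3, 25.03 and 22.4 CPM in the rIL-31 libraries, against 17.6, 19.5 and 21.3 CPM in the saline libraries, and Tie1 had a mean of 24.5 ± 4.48 CPM in rIL-31-treated and 22.2 ± 3.49 CPM in saline-treated skin (SD, n = 3 each). Both receptors had log2 fold changes of 0.14 to 0.15 that did not pass.

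The remaining genes of endothelial identity did not pass the test. Pecam1 was at 40.5, 52.1 and 32.2 CPM in the rIL-31 libraries, against 43.2, 34.0 and 39.7 CPM in the saline libraries, so that the saline values lay inside the range of the rIL-31 values. Its log2 fold change was 0.0935 (95% interval -0.29 to 0.48). The adhesion gene Esam was at 17.3 ± 1.15 CPM in rIL-31-treated and 15.9 ± 0.975 CPM in saline-treated skin (SD, n = 3 each), with a 95% interval of the log2 fold change from -0.19 to 0.43. Plvap, which forms the diaphragms of fenestrated capillaries, was at 53.0, 44.0 and 31.6 CPM in the rIL-31 libraries, against 40.3, 34.4 and 32.3 CPM in the saline libraries. Its log2 fold change was 0.26 with an FDR of 0.469 in edgeR's test, and 0.44 with an FDR of 0.0431 without rIL-31 replicate 3. Nos3, the endothelial nitric oxide synthase, ranged from 7.31 to 14.8 CPM in the rIL-31 and from 10.1 to 11.8 CPM in the saline libraries. Nos3 shares 1040 exon bases with the antisense gene Gm15587 and 294 with the protein-coding gene Atg9b on the other strand. Its values may hold reads of those genes. The surface and matrix genes Emcn, Egfl7, Robo4, Icam2 and Mmrn2 had log2 fold changes between -0.25 and 0.087. Egfl7 shares 264 exon bases with the protein-coding gene Gm20532 on the same strand. The transcription factor genes Erg, Sox17 and Sox18, which set endothelial identity, were at 0.097, -0.096 and -0.0067, each with a 95% interval that reached past 0.5 in both directions at 2.76 to 6.48 CPM per library.

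Apln encodes apelin, which endothelial tip cells secrete, and Aplnr its receptor. Apln was at 3.89, 4.18 and 3.35 CPM in the rIL-31 libraries, against 2.86, 2.69 and 2.98 CPM in the saline libraries, and the groups did not overlap. The log2 fold change of 0.42 (SE 0.27, 95% interval -0.19 to 1.03) did not pass, with an FDR of 0.446 in edgeR's test. Aplnr was at 17.3 ± 1.88 CPM in rIL-31-treated and 18.2 ± 2.23 CPM in saline-treated skin (SD, n = 3 each). Esm1, a secreted marker of sprouting endothelium, had 3 to 19 counts per library, and a change in it was not detectable at this depth, since its 95% interval ran from -1.33 to 2.20 on the log2 scale.

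Of the lymphatic genes among the 37, Mmrn1, a secreted multimerin that lymphatic endothelium and platelets hold, was at 13.5, 23.4 and 25.01 CPM in the rIL-31 libraries, against 29.2, 30.97 and 27.4 CPM in the saline libraries. All rIL-31 values lay below the saline values, with rIL-31 replicate 1 far below the others. Mmrn1 was at -0.50 on the log2 scale (SE 0.21) with an FDR of 0.208 in edgeR's test, and without rIL-31 replicate 3 it was -0.66 with an FDR of 0.044. Pdpn, podoplanin, which keratinocytes and fibroblasts also make, was at 51.2, 41.5 and 56.0 CPM in the rIL-31 libraries, against 35.5, 41.1 and 46.1 CPM in the saline libraries, and overlapped. Prox1, the transcription factor gene that sets lymphatic fate, had 1.601 ± 0.359 and 1.56 ± 0.138 CPM in rIL-31 and saline libraries (SD, n = 3 each), from 29 to 50 counts. It shares 133 exon bases with the antisense gene Prox1os. A separate list of 14 lymphatic markers had none that passed in edgeR's test, with 1 higher and 1 lower at an unadjusted p below 0.05 and a median log2 fold change of -0.011. DESeq2 called 1 of them lower (Reln, FDR 0.0656), and limma-voom called none. The genes of this list with the smallest p were Reln at -0.38 (FDR 0.113), Sned1 at 0.38, Ccl21a at -0.26 and Fxyd6 at 0.33. Without rIL-31 replicate 3, 3 of the list passed as higher, Sned1 and Fxyd6 among them, and Reln passed as lower, where 12.3% and 11.8% of all tested genes did. With the GC and length offsets Sned1 passed as higher (0.49, FDR 0.0861), Ccl21a passed as lower (-0.40, FDR 0.0711 in edgeR's test) and Reln was at -0.19 (FDR 0.403).

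Rgs5, a regulator of G protein signaling that marks pericytes, was at 23.7, 32.1 and 40.7 CPM in the rIL-31 libraries, against 44.1, 45.9 and 47.2 CPM in the saline libraries. The rIL-31 values spread widely and all lay below the saline values. Rgs5 had a log2 fold change of -0.51 (SE 0.17, 95% interval -0.89 to -0.12). The FDR was 0.137 in edgeR's test, 0.0781 with DESeq2 and 0.00677 without rIL-31 replicate 3, where the log2 fold change was -0.71. The Rgs5 transcript has a GC content of 41.1%, and with the GC and length offsets the log2 fold change was -0.41 at an FDR of 0.116. Of 14 further markers of pericytes and vascular smooth muscle, 13 were tested, 1 fell, none rose and 12 did not pass, with a median log2 fold change of 0.165. Over all tested genes, 4.51% were called higher and 3.73% lower. The summed level of the 14 was 635 to 853 CPM in the rIL-31 and 651 to 726 CPM in the saline libraries. Des was the largest part of this sum, with means of 250.5 CPM in rIL-31-treated and 223.6 CPM in saline-treated skin. The one that fell was Abcc9, a potassium channel subunit of pericytes, at -0.42 (SE 0.13). It passed in 2 of the 6 fits with 1 library left out and was at -0.21 (FDR 0.381) with the GC and length offsets. With these offsets the list had 2 genes called higher and 0 lower, beside 5.45% and 3.01% of all tested genes. Without rIL-31 replicate 3 it had 3 higher and 1 lower, beside 12.3% and 11.8% of all tested genes. Higher in both were Cspg4, a proteoglycan of pericytes (0.40, FDR 0.084 with the offsets), and Notch3, a receptor of mural cells (0.30, FDR 0.0811), which were at 0.31 (FDR 0.218) and 0.23 (FDR 0.374) in edgeR's test with all libraries and no offsets. Ndufa4l2, whose p was smaller than that of Notch3, went the other way and did not pass. It was at -0.30 (FDR 0.337) in edgeR's test and at -0.40 (FDR 0.229) with the offsets.

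Per kilobase of the longest GENCODE transcript, the levels of the 37 genes in saline-treated skin ran from 0.195 for Esm1 to 22.5 for Pdpn, in CPM per kilobase. The 6 highest were Pdpn, Plvap, Vegfa, Vegfb, Angptl2 and Icam1, with means of 22.5, 17.9, 17.4, 17.1, 16.3 and 15.9, and the ranges of neighbours in this order overlapped. Rgs5 and Vcam1 followed Pecam1 at 11.2 and 9.35. Sele was rank 24 in saline-treated skin at 2.32 CPM per kilobase (library range 2.22 to 2.40), beside Angpt2 at 2.33 and Angpt1 at 2.32, and its level in rIL-31-treated skin was 5.27. Angptl7 was rank 31 at 1.15 CPM per kilobase in saline-treated skin and was at 2.47 in rIL-31-treated skin. At every level the longest transcript stood for the gene, so these values depend on which isoform is used.

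**Figure D3:**
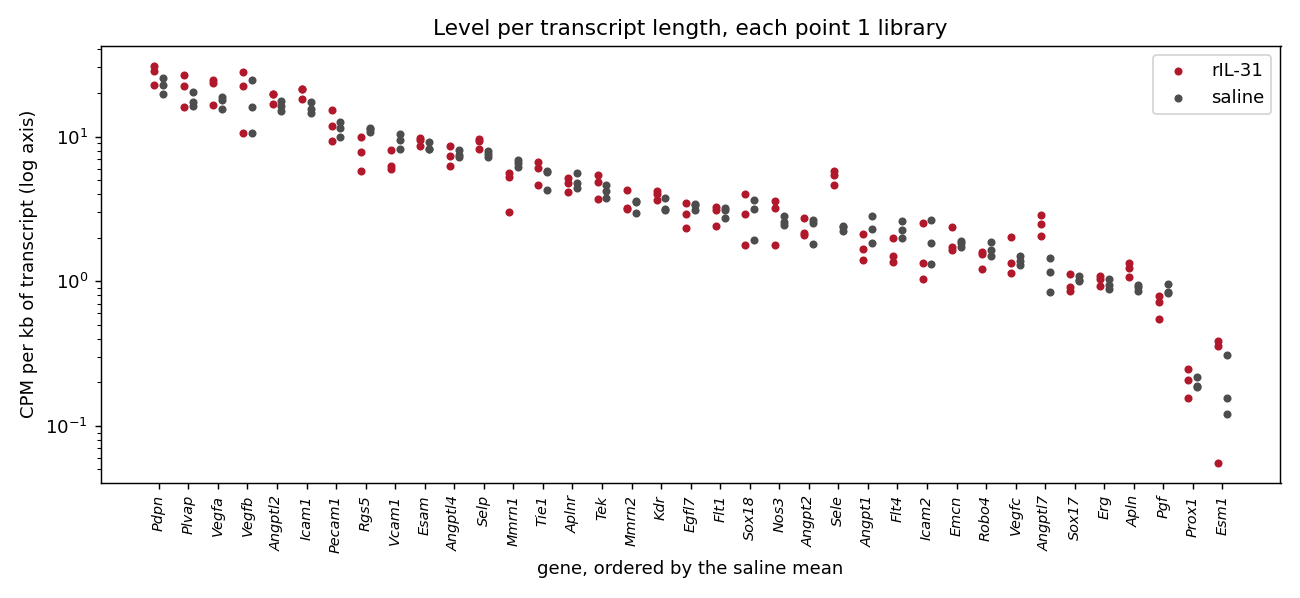
Level of the 37 vessel genes per kilobase of transcript in each library (log axis), ordered by the mean of the saline libraries, rIL-31 in red and saline in grey. Sele, at 5.27 in rIL-31-treated against 2.32 in saline-treated skin, and Angptl7, at 2.47 against 1.15, stand out by the distance between the red and the grey points.

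Beyond the 37 genes, 46 other genes of endothelium and of VEGF, angiopoietin and Notch signaling were all tested, of which 4 rose, 1 fell and 41 did not pass, with a median log2 fold change of 0.036, beside 4.51% higher and 3.73% lower over all tested genes. With 1 library left out 2 to 9 rose, the lowest without saline replicate 3 and the highest without rIL-31 replicate 3, and 0 to 2 fell. Over all tested genes, 12.3% were called higher and 11.8% lower without rIL-31 replicate 3. Thbd, thrombomodulin, an anticoagulant receptor of endothelium that keratinocytes also make, was at 77.6, 83.1 and 81.9 CPM in the rIL-31 libraries, against 49.3, 50.2 and 53.5 CPM in the saline libraries. Its log2 fold change was 0.67 (SE 0.10, FDR 0.00447 in edgeR's test), and it passed in all 6 fits with 1 library left out. Sox7, a relative of Sox17 and Sox18, was at 36.3, 33.5 and 38.4 CPM in the rIL-31 libraries, against 22.8, 26.2 and 22.6 CPM in the saline libraries. It rose by 0.60 (SE 0.13) on the log2 scale and missed the threshold without saline replicate 1 or 3. Cd34, a sialomucin of endothelium and of hair follicle stem cells that was named after its values were seen, rose by 0.55 (SE 0.16) and passed only without rIL-31 replicate 3 among the fits with 1 library left out. Cldn5, the claudin of endothelial tight junctions, fell to 20.0, 13.7 and 11.9 CPM in the rIL-31 libraries, against 25, 28.4 and 23.2 CPM in the saline libraries. Its log2 fold change was -0.75 (SE 0.19, FDR 0.0543 in edgeR's test) and -0.91 with the GC and length offsets. With 1 library left out, Cldn5 passed without rIL-31 replicate 1 or 3, and missed the threshold in the other 4 fits with FDRs up to 0.249.

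Of 25 tested secreted angiogenic factors outside the VEGF and angiopoietin families, 9 rose, none fell and 16 did not pass, with a median log2 fold change of 0.32, where 4.51% of all tested genes were called higher. With 1 library left out 6 to 11 rose, with 6 without rIL-31 replicate 1 or any one of the saline libraries. Several of them are cytokines and chemokines with other main roles. Cyr61, a matricellular ligand of integrins, was at 82.5, 71.5 and 74.1 CPM in the rIL-31 libraries, against 22.6, 21.6 and 28.8 CPM in the saline libraries, a log2 fold change of 1.65 (SE 0.14). Cxcl5, Il1b and Hbegf also rose, at 5.34, 1.90 and 1.21, and are better known for neutrophil attraction, inflammation and epidermal growth factor receptor signaling. Of 17 tested secreted inhibitors of angiogenesis, 4 rose, 1 fell and 12 did not pass, with a median log2 fold change of 0.20, beside 4.51% higher and 3.73% lower over all tested genes. Without rIL-31 replicate 3, 8 of the inhibitors rose, where 12.3% of all tested genes were called higher. Thbs1, thrombospondin 1, was at 1460, 1447 and 1254 CPM in the rIL-31 libraries, against 767, 632 and 576 CPM in the saline libraries. Pf4, a platelet and macrophage chemokine, rose by 0.86 (SE 0.15), and the metalloproteinase gene Adamts1 by 0.68 (SE 0.13). Timp3, which blocks Vegfa at Kdr, rose by 0.51 (SE 0.12), missed the threshold in 3 of the 6 fits with 1 library left out, and was named after its values were seen. Tnmd, tenomodulin, fell by 0.88 on the log2 scale (SE 0.18). Il1b, Il6 and Mmp2, all on the list of angiogenic factors, are among the transcripts the study chose to measure again, so the count over that list is not independent of the choice. Mmp2, a matrix metalloproteinase, did not pass (0.36, FDR 0.102 in edgeR's test), though its groups did not overlap, and it and Il6 were named after their values were seen. By real-time PCR, the study reported a significant rise of Il6, Il1b and Mmp2 after rIL-31.

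Of 17 genes of the hypoxia response, a list that holds regulators such as Hif1a, Arnt and Vhl as well as targets, 2 rose and 15 did not pass, with a median log2 fold change of -0.028. Over all tested genes, 4.51% were called higher and 3.73% lower. P4ha1, a prolyl hydroxylase of collagen, rose by 0.45 (SE 0.12) and Ldha, lactate dehydrogenase A, by 0.38 (SE 0.10). Both passed only without rIL-31 replicate 3 among the fits with 1 library left out, and Ldha missed the threshold with the GC and length offsets (0.27, FDR 0.106). Slc2a1, the glucose transporter gene, was at 203, 215 and 89.9 CPM in the rIL-31 libraries, against 126, 95.8 and 72.5 CPM in the saline libraries, with overlap, a log2 fold change of 0.79 and an FDR of 0.165 in edgeR's test. Without rIL-31 replicate 3, which lay below saline replicates 1 and 2, Slc2a1 was at 1.09 with an FDR of 0.00207. Epas1, the hypoxia-inducible factor gene of endothelium, was at 0.21 (SE 0.098).

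Markers of other cell types moved as well, beside 4.51% called higher and 3.73% called lower over all tested genes. Besides keratinocytes, mast cell markers rose in 5 of 7 cases (1 of 7 without saline replicate 2), with summed levels of 302 to 352 CPM in the rIL-31 and 229 to 238 CPM in the saline libraries. Of 5 red blood cell genes, 2 fell (4 with the GC and length offsets, 5 without rIL-31 replicate 3 and 0 without saline replicate 2 or 3). These were Hbb-bt at -0.61 and Hbb-bs at -0.66, near-identical copies whose reads counting can split. The summed level of the 5 was 321 to 438 CPM in rIL-31 and 518 to 697 CPM in saline libraries. Hba-a1 and Hba-a2 had the same level in every library, so the counts of 4 and 5 and this sum hold 1 measurement under 2 names. Over all tested genes, 3.01% were called lower with the offsets and 11.8% without rIL-31 replicate 3. Of 8 skeletal muscle genes, Pvalb and Myh4 fell. The 8 fibroblast markers had 1 rise (Pi16), and the 9 macrophage and 8 adipocyte markers had no change that passed in edgeR's test, with 1 macrophage marker higher, none lower and no adipocyte marker on either side at an unadjusted p below 0.05. DESeq2 and limma-voom called none of these macrophage and adipocyte markers either. The part of these cell types in the values of Sele, Angptl7, Vcam1, Rgs5 and Mmrn1 was not tested.

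**Figure D4:**
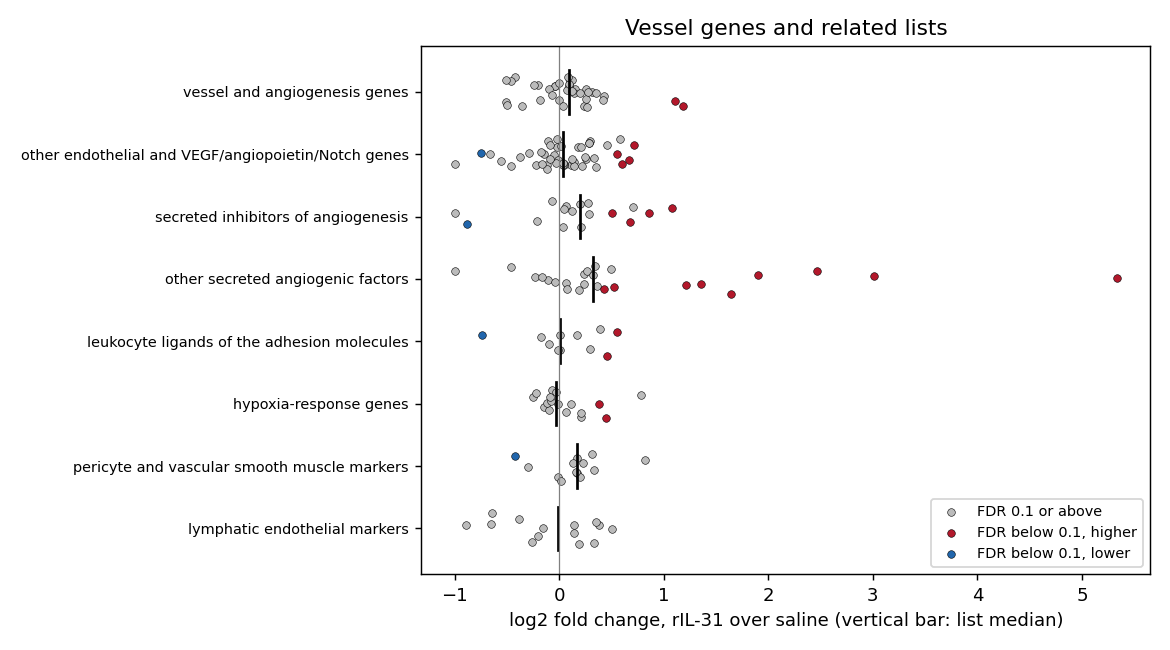
Log2 fold change of every tested gene (points) in the vessel genes and in 7 related lists, with the median of each list as a vertical bar. Genes past an FDR below 0.1 are red where higher and blue where lower, and the medians run from -0.028 for the hypoxia-response genes to 0.32 for the other secreted angiogenic factors.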

How the data were processed

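Skin RNA (3 libraries with rIL-31 and 3 with saline) was sequenced on an Illumina instrument. The authors' deposited table holds raw whole-number counts for each gene. Programs that the submitters list are TopHat, DESeq, bcl2fastq and CASAVA (version 1.8), and their genome build is mm10. No source used here states the counter, its annotation or its strand setting.

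Genes were named from the RefSeq annotation of GRCm38.p6, and 85 of 24061 numbers had no name. Genes were filtered with filterByExpr (minimum count 10), scaled with TMM and tested with edgeR 4.0.16 (R 4.3.3), treatment being the only term. FDR is the Benjamini-Hochberg adjusted p over 16371 genes, and genes were called below 0.1. Every pair of libraries differed beyond sampling noise (chi-square of at least 8.95 per degree of freedom). Intervals of fold changes are 95% intervals from the same fit. DESeq2 1.42.0, limma 3.58.1 and the other settings of the closing section were alternatives. Offsets for GC content and transcript length were added to depth and TMM, and 94.2% of tested genes had both. The fits were tested on simulated data.

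The members and lists were chosen with earlier results of these data known. Genes named from the related lists were the 4 of each list with the smallest p, except where said. Others were named as large parts of a sum or to describe a list. Not every marker of the other cell types was named. Vegfa, Flt1, Kdr, Tek, Angpt1, Angpt2 and Pecam1 were given per library whatever their result, as were genes that passed or whose groups did not overlap. Promoters were planned for genes that passed. An item of the leukocyte list is not reported here and was left out of its counts and median.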

Additional observations from a re-analysis of the deposited data

How the results depend on the processing

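Over 16 alternatives, the 37 vessel genes gave 591 fold changes, of which 560 kept their direction and side of the threshold or moved by less than 1 standard error, 18 newly passed, 5 no longer passed (all of them Angptl7 with 1 library left out), 8 moved further without passing, and none that passed changed sign. Sele passed in all 16. Among values that passed in neither fit, 34 of 541 changed sign. The number of vessel genes called higher was 1 to 5 with 1 library left out, and the number called lower 0 to 3. The number called lower was 2 with DESeq2, 1 with upper-quartile normalization, 4 with the replicate block and 2 with the GC and length offsets and the replicate block together. Over all genes, 739 were higher and 610 lower, 246 to 2050 and 171 to 1968 with 1 library left out, 188 and 114 at more than 2-fold, 1177 and 1096 with the replicate block, 1314 higher with the offsets and the replicate block together, and 924 lower with DESeq2. The highest counts with 1 library left out were those without rIL-31 replicate 3, and the lowest were those without saline replicate 2. The cause was not tested.

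The labels do not say whether replicate numbers pair the samples. Deviations from the group means correlated at 0.077, -0.02 and 0.216 between rIL-31 and saline libraries of numbers 1, 2 and 3. With 3 libraries per group, these values cannot show or exclude a pairing. With the replicate number as a block, 3 vessel genes were higher (Sele, Angptl7 and Icam1) and 4 lower (Vcam1, Rgs5, Mmrn1 and Flt4). Replicates 1 and 3 of the rIL-31 group correlated best with the saline library of their own number, and rIL-31 replicate 2 with saline replicate 1 (0.148). At 3 to 19 counts per library, the interval of Esm1 was too wide to show a change of the size seen for Sele.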
